A study of Homo sapiens with 2 samples.

Results

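The probes described here are the 24 oligonucleotides on a microRNA (miRNA) array that capture other small RNAs: small nucleolar RNAs (snoRNAs), small nuclear RNAs (snRNAs) and 5S ribosomal RNA (rRNA). They were taken as every probe whose name starts with SNORD, SNORA, RNU, U6B or 5S_rRNA, out of 2661 probes with values, and no measured value entered that choice. By name they comprised 17 C/D box snoRNAs, 1 H/ACA box snoRNA, 5 snRNA probes and 1 probe for 5S rRNA. The RNA came from H460 cells, an established human non-small cell lung cancer line, kept in medium with fetal bovine serum and given either vehicle or sulforaphane for 48 hours. Sulforaphane, an isothiocyanate found in broccoli, is known as an activator of the transcription factor NRF2. Its dose was not stated in the labels. Each condition was measured on 1 array, in a single dye (Hy3). No spread between cultures could be estimated, and none of the differences below has a test or a p-value. These RNAs occur in all human cells, so their signals do not check the identity of the line.

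Small RNAs of these classes are the usual internal references of miRNA assays, in which the signal of a miRNA is divided by that of an RNA presumed to be the same in every sample. C/D box snoRNAs guide the methylation of ribose in rRNA and snRNA, H/ACA box snoRNAs guide the conversion of uridine to pseudouridine, and a few snoRNAs take part in cutting the rRNA precursor. The snRNAs U1, U5 and U6 are parts of the spliceosome, and 5S rRNA is a component of the large ribosomal subunit. Most human snoRNAs are cut out of the introns of host genes, whereas U3, U8, U13, U1 and U5 have promoters of their own for RNA polymerase II, and U6 and 5S rRNA are made by RNA polymerase III.

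The files pair these probes with names but give no probe sequences. Shown here are the starts of 3 host genes, because a contrast among the snoRNAs turns on which of them come from the same precursor. SNORD49A and SNORD65 lie in the same gene, SNHG29, while SNORD44 lies in GAS5 and SNORD48 in SNHG32. All 3 hosts are long non-coding RNA genes. The letters are from RefSeq (GRCh38.p14), 5′ to 3′ on the gene's strand, 50 bases before the annotated start and 50 from it on. Capitals mark the longest run of C and T that reaches within 10 bases of that start.
SNHG29, chr17:16438937-16439036, plus strand: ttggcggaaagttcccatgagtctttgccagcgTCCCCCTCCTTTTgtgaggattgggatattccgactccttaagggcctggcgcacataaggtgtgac
GAS5, chr1:173868996-173869095, minus strand: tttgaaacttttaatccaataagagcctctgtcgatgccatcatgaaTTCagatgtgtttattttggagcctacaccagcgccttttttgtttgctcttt
SNHG32, chr6:31834866-31834965, plus strand: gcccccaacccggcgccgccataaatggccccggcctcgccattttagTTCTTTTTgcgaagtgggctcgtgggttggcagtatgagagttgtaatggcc
The run was 13 bases at SNHG29, 3 at GAS5 and 8 at SNHG32. A pyrimidine run at the start of transcription is known from mRNAs of the translation machinery and from many snoRNA host genes. Of the 11 host genes of the measured snoRNAs, 9 matched the promoter table, and 4 of these had a run of at least 8 bases (44.4%). Of all 35116 promoters in that table, 15.2% had such a run. The runs and the count rest on annotated starts, which may lie away from the real ones. A short run, as at GAS5 or at the ribosomal protein gene RPL13 (4 bases), therefore does not show that a longer one is absent.

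Most of these probes were bright. A probe counted as detected where its normalized intensity exceeded, on that array, the 95th percentile over 143 probes for viral miRNAs. This floor was 6.44 with vehicle (718 background-subtracted units) and 5.52 with sulforaphane (684 units). Of the 24 small RNA probes, 21 were above it on both arrays: 15 of the C/D box snoRNAs, all 5 snRNA probes and the 5S rRNA probe. Their background-subtracted signal had a median of 7884 units with vehicle (range 863 to 22162) and 11521.5 units with sulforaphane (range 947 to 33278). The 168 human miRNA probes above the floor had medians of 1895.75 and 2611 units, so the reference probes as a group read brighter than the miRNAs. No small RNA probe was at the scanner limit of 65535. Probes differ in affinity, so the order of brightness is not an order of abundance.

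The brightest probe on both arrays was that for SNORD3@, the name of the gene group for U3, which takes part in cutting the precursor of small subunit rRNA. It read 22162 units with vehicle and 33278 with sulforaphane. SNORD6 and SNORD65, guides of rRNA methylation, exchanged the next ranks. SNORD6 read 20314.5 and 29474 units and SNORD65 read 19072 and 31903. SNORD48 (15168.5 and 18479) and 5S rRNA (14627 and 17482) kept ranks 4 and 5 on both arrays. At the other end, SNORD110 read 863 and 947 units, just above the floor, and SNORD14B read 1047.5 and 1023.

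The remaining 3 probes were not detected on both arrays. SNORD12, whose gene lies in the lncRNA gene ZFAS1, read 439 units with vehicle and 770 with sulforaphane, under the floor on the former array and above it on the latter. Its normalized value with sulforaphane (6.21) was below the vehicle floor (6.44), so no fold can be given. SNORD15A, inside the ribosomal protein gene RPS3, had normalized values of 0.238 and 0.532. SNORA66, the H/ACA box snoRNA, had 0.363 and 0.806. Both were below the floor on either array, and a difference in them was not detectable. H/ACA box snoRNAs are therefore not represented in anything that follows.

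The comparison was the log2 ratio of the authors' normalized intensity, sulforaphane over vehicle. Normalized intensity is the background-subtracted signal divided by a single factor per array, 111.5 for vehicle and 124 for sulforaphane. On this scale no detected small RNA was 2-fold apart between the arrays in either direction. Among the detected miRNAs 4.76% were. The 21 ratios ran from -0.21 for RNU6-1 to 0.59 for SNORD65, and their median was 0.25 ± 0.25 (SD over the probes). Of the 21, 16 had a ratio above 0 and 5 below it, against 82.7% of detected miRNAs above 0. These signs depend on the scale: under 7 other scalings, RNU6-1 and SNORD14B were below 0 throughout, and no other small RNA kept its sign. The median of the miRNAs was 0.38 ± 0.39 (SD, 168 probes). The small RNAs were spread over a narrower range than the miRNAs, whose ratios ran from -1.17 to 1.47, in a set of fewer probes. Scaled by 1 factor per array, ratios in bulk RNA are relative and show neither the number of cells nor the RNA per cell.

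The spread between probes on this pair of arrays can be gauged from the 41 detected spike-in probes, which bind RNA added from outside. Their ratios ran from 0.06 to 0.95, a span of 0.89 against 0.80 for the 21 small RNAs. The spike-in ratios had an SD of 0.20 between probes around a median of 0.68. All 21 small RNAs lay below that median, as did 91.1% of detected miRNAs. Neighbours in the order of the 21 ratios were a median of 0.03 apart, far less than 0.20, so adjacent ranks are not distinguished. Of the 210 possible pairs of small RNA probes, 105 lay within 1.2-fold of each other and 24 were more than 1.5-fold apart.

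The snoRNAs that act in the processing or acetylation of rRNA had log2 ratios from -0.19 to 0.46. SNORD3@ (U3) read a normalized 199 with vehicle and 268 with sulforaphane, which is a log2 ratio of 0.43. SNORD118 (U8), which acts in the maturation of large subunit rRNA, read 15.8 and 21.7, a ratio of 0.46. The ratios of U3 and U8 were thus 0.02 apart although their signals differed 12.6-fold on the vehicle array and 12.4-fold on the sulforaphane array. SNORD13 (U13), which guides acetylation of small subunit rRNA, read 124 and 120, a ratio of -0.04. SNORD14B (U14), needed for the small subunit precursor, read 9.39 and 8.25, a ratio of -0.19. U3 and U8 were therefore higher with sulforaphane on the authors' scale while U13 was nearly equal and U14 lower, and U14 was also the second dimmest of the 21.

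Among the snoRNAs known as methylation guides, the long-used references were close together. SNORD44 (older name RNU44) went from 83.0 to 89.7, a log2 ratio of 0.11. SNORD48 (RNU48) read 136 and 149, a ratio of 0.13. Both read slightly higher with sulforaphane on the authors' scale and below 0 under 5 of the 7 other scalings. SNORD49A (RNU49) read 117 and 122, a ratio of 0.06. SNORD38B (RNU38B) read 40.0 and 45.9, a ratio of 0.20. These 4 spanned 1.04-fold to 1.15-fold, and SNORD44 and SNORD48, from different host genes, were 0.02 apart on the log2 scale.

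The other guides were more scattered. SNORD68, inside RPL13, read 51.6 and 50.1, a log2 ratio of -0.04. SNORD110, inside NOP56, a gene for a protein of the C/D box particle itself, read 7.74 and 7.64, a ratio of -0.02. Both were nearly equal on the arrays, SNORD110 close to the floor. SNORD2, in the translation factor gene EIF4A2, read 109 and 130, a ratio of 0.25. SNORD10, a guide for U6 that lies in EIF4A1, read 70.7 and 92.9, a ratio of 0.39. SNORD6, in TAF1D, read 182 and 238, a ratio of 0.38.

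SNORD4A and SNORD65 had the highest ratios of the set. SNORD4A, in RPL23A, read 25.8 and 38.6, a log2 ratio of 0.58. SNORD65 read 171 and 257, a ratio of 0.59, and was the 1 detected small RNA at least 1.5-fold higher (1.504-fold), against 16.1% of detected miRNAs. SNORD49A, as shown above for SNHG29, has the same host gene. SNORD65 gave 1.47 times the signal of SNORD49A on the vehicle array and 2.11 times on the sulforaphane array. Their log2 ratios thus differed by 0.53 (1.44-fold), whatever single factor scales the arrays. This gap is about as wide as that between U3 and U13 (0.48), which have separate genes. Both gaps are narrower than the 0.89 spanned by the ratios of the 41 detected spike-in probes.

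The U6 probes differed in their ratios. U6 RNA is a widely used reference of miRNA assays, and RNU6-1 and RNU6-2 are genes for the same U6 RNA. The probe named RNU6-1 went from a normalized 21.5 to 18.6, and its log2 ratio of -0.21 was the lowest of the set. The probe named RNU6-1_RNU6-2 read 78.8 and 103, a ratio of 0.38. The probe named U6B, after a U6 copy that RefSeq now lists as the pseudogene RNU6-6P, read 11.4 and 14.4, a ratio of 0.33. On the authors' scale, RNU6-1_RNU6-2 and U6B were thus higher with sulforaphane and RNU6-1 was lower. The ratios of RNU6-1_RNU6-2 and U6B were below 0 under 3 of the 7 other scalings, and that of RNU6-1 was below 0 under all 7.

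RNU6-1_RNU6-2 and U6B differed by 0.05 on the log2 scale, although the former gave 6.91 times the signal of the latter with vehicle and 7.14 times with sulforaphane. RNU6-1 lay 0.59 below RNU6-1_RNU6-2 on the log2 scale and 0.54 below U6B. Those gaps do not depend on a single factor per array. Both are narrower than the 0.89 spanned by the ratios of the 41 detected spike-in probes. After quantile normalization RNU6-1 lay 0.39 below RNU6-1_RNU6-2 and 0.69 below U6B, and after cyclic loess 0.52 and 0.58 below them. The closeness of RNU6-1_RNU6-2 and U6B held less well: U6B lay 0.30 above RNU6-1_RNU6-2 after quantile normalization and 0.06 above it after cyclic loess. RNU6-1 read 2398 and 2306.5 units, between the other U6 probes in brightness and more than 3 times the floor. It was among the 7 dimmest of the 21 small RNA probes, whose ratios had an SD of 0.34. A role of low signal was not tested. The sources used here do not say which stretch of U6 each probe captures, and a role of the probe's position was not tested.

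The probes for U1 and U5 lay close together. RNU1, for U1, which recognises the start of introns, read 34.1 and 47.8, a log2 ratio of 0.49. RNU5, for U5, which holds the exon ends, read 63.7 and 95.05, a ratio of 0.58. Both lay above the miRNA median of 0.38. Several gene copies encode U1 and U5, and the probe names do not separate them. 5S rRNA, also encoded by many copies, read 131 and 141, a ratio of 0.10.

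By class, the 15 C/D box snoRNAs were centred on a log2 ratio of 0.20 ± 0.24 (median, SD over probes), with a range of -0.19 to 0.59. The 5 snRNA probes had a median of 0.38 ± 0.31, with a range of -0.21 to 0.58. The single 5S rRNA probe lay at 0.10. The snRNA median was higher than that of the snoRNAs by less than either class's SD, and the ranges overlapped nearly in full. Since 3 of the 5 snRNA probes capture U6 or a U6 copy, they represent 3 different RNAs.

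Which of these RNAs differed least depended on the zero point. On the authors' scale, 11 of the 21 lay within 1.2-fold of equal, against 30.4% of detected miRNAs. The nearest were SNORD110, SNORD13 and SNORD68 (-0.02 to -0.04), followed by SNORD49A, 5S rRNA, SNORD44 and SNORD48. Relative to the miRNA median of 0.38, 13 of the 21 lay within 1.2-fold, against 63.1% of the detected miRNAs themselves, and the nearest were SNORD6, RNU6-1_RNU6-2, SNORD10, SNORD3@ and U6B. Relative to the spike-in median of 0.68, 6 did, against 43.5% of detected miRNAs, led by SNORD65, SNORD4A and RNU5. The 11 RNAs near equality on the authors' scale and the 6 near the spike-in median had no member in common, as the distance between those zero points requires.

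The effect of that choice on a miRNA assay was computed by dividing both arrays by each of the 21 detected small RNAs in turn. Between RNU6-1 and SNORD65 as the reference, every miRNA ratio shifted by 1.74-fold. The 168 detected miRNAs then had a median log2 ratio of 0.59 with RNU6-1 and -0.21 with SNORD65. It was above 0 with 13 of the references and below 0 with 8. For miR-16-5p, itself a frequent reference, the log2 ratio ran from 0.58 to -0.22 across these references.

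The number of miRNAs that reached 2-fold moved accordingly. With RNU6-1 as the reference, 9 miRNAs reached 2-fold towards sulforaphane and 0 reached it towards vehicle. With SNORD65 the respective counts were 0 and 7. With SNORD44 or SNORD48, they were 4 and 3. With RNU6-1_RNU6-2 they were 1 and 5, so the choice between U6 probes changed the balance of calls from all higher to mostly lower. With the mean log2 ratio of all 21 small RNAs as the reference (0.24), 3 miRNAs were 2-fold higher and 4 lower. The mean of the 3 U6 probes gave 3 and 3. These counts come from the same arrays and differ only in the constant subtracted.

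Among miRNAs that are often used as references, a list of 18 was compared, all of them on the array, and 14 were detected. Their sequences are from RefSeq, shown for the miRNAs with the lowest and the highest ratio and for 2 that are in common use, with the seed (bases 2 to 8) in capitals.
miR-361-5p: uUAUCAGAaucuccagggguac
let-7a-5p: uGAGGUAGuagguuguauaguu
miR-16-5p: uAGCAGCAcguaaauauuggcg
miR-93-5p: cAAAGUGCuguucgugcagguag
No seed is shared among these. miR-361-5p read 20.0 and 20.7 (log2 ratio 0.05), let-7a-5p 20.0 and 21.2 (0.09), miR-16-5p 69.6 and 90.0 (0.37) and miR-93-5p 43.6 and 72.6 (0.74). The 14 had a median of 0.52 ± 0.22 (SD between probes). All of them were above 0, against 82.7% of all detected miRNAs and 16 of the 21 small RNAs. On the authors' scale 3 of the 14 lay within 1.2-fold of equal, against 30.4% of all detected miRNAs. The gap between the lowest and highest was 0.69, close to the 0.80 spanned by the small RNAs.

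Brightness did not order the ratios closely. Across the 21 small RNAs, mean log2 signal and log2 ratio had a Pearson's r of 0.32 and a Spearman's rho of 0.21, over probes that share the same pair of arrays. The SD of the ratios was 0.34 in the 7 dimmest probes, 0.20 in the 7 of middle brightness and 0.23 in the 7 brightest. The local background under the 24 probes was 37.5 to 49 units on the vehicle array and 51.5 to 82.5 on the sulforaphane array. The foreground of each detected probe was at least 23.7 times its background with vehicle and 15.2 times with sulforaphane. With foreground in place of background-subtracted signal, both without normalization, the lowest and highest ratios were -0.05 and 0.74 against -0.06 and 0.74.

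With 1 array per condition, the data rank these RNAs by how much they differed between a particular pair of hybridisations. Steadiness after sulforaphane would need replicate cultures and was not tested.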

How the data were processed

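The deposited workbook holds, per the file headers, for each probe and array a foreground intensity, the same intensity less background, and a normalized value. The last is, as deposited, a ratio: background-subtracted intensity over 1 factor per array. The sources used here do not say how the factors were chosen, nor name the scanner or software. The fold change column divides the normalized value of sulforaphane by that of vehicle. The series value table repeats them for all 2661 probes. RNA extraction used TRIzol and a spin column, and the dye was Hy3, per the labels.

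No value was added before the logarithm. The text names every small RNA probe. A separate list of 18 miRNAs used as references served for comparison. Besides those with sequences shown, its detected members were miR-103a-3p, miR-191-5p, miR-23a-3p, miR-24-3p, miR-423-5p, miR-425-5p, miR-25-3p, miR-186-5p, miR-30c-5p and miR-151a-3p. Not detected on both arrays were miR-26a-5p, miR-484, miR-99a-5p and miR-197-3p. The small RNA probes were picked by their names, without their values, but this set, the list and the groupings were proposed with earlier results of these data known. Host genes are those whose RefSeq interval (GRCh38.p14) encloses the snoRNA, a readthrough gene over EIF4A1 left out; 23 probe names matched that table, RNU1, RNU5, RNU6-1_RNU6-2, SNORD3@ and U6B through a synonym or 1 copy. The number of arrays, 1 per group, limits the precision. The calculation of ratios was checked on simulated arrays, which says nothing about the spread between cultures. Alternatives were scalings (limma 3.58.1 in R 4.3.3 for quantile and cyclic loess), floors and size rules. Python 3.11.15, numpy 2.4.6 and pandas 2.3.3 were used. No figure is given, since the members are designed probes.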

Additional observations from a re-analysis of the deposited data

How the results depend on the processing

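A single factor per array moved all small RNAs by the same amount, but quantile normalization and cyclic loess moved them unequally. After quantile normalization, RNU6-1_RNU6-2 went from 0.38 to -0.17 and U6B from 0.33 to 0.13. The median log2 ratio of the 21 probes (0.25) was -0.055 when the arrays were scaled by the median intensity of detected miRNAs, and -0.091 by summed miRNA intensity. It was -0.19 after quantile normalization, -0.20 after cyclic loess and -0.45 by the median intensity of the spike-in probes. In the same order, that of C/D box snoRNAs was -0.11, -0.15, -0.20, -0.21 and -0.50, that of snRNAs 0.071, 0.035, 0.048, -0.0023 and -0.32, and that of 5S rRNA -0.20, -0.24, -0.29, -0.36 and -0.60. These shifts exceeded 0.20, the SD of the spike-in probes. Without normalization and with foreground, the median of the 21 was higher instead, at 0.41 in both, a shift of less than 0.20. Scaling by median intensities differs from subtracting the median ratios of 0.38 (miRNAs) and 0.68 (spike-in probes), so the zero points are not the same. RNU6-1 and SNORD14B were below 0 under all 7 scalings, and no other probe kept its sign under all of them. The count within 1.2-fold of equal (11) was 7 without normalization and with foreground, 5 with spike-in scaling and 20 at a 1.5-fold rule. The count of 5 is centred on the median intensity of the spike-in probes, and the count of 6 given earlier on their median ratio. The count at least 2-fold apart (0) was 2 with no floor, namely SNORA66 and SNORD15A, and 1 at the 1.5-fold rule. Under the 8 settings that can change the ratio of a single probe, 64 of 168 values moved by less than 0.20. No paired analysis was possible because each group had 1 array.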

Other observations

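Grouped by how the genes are transcribed, a grouping made after the values had been seen, the 5 RNAs with their own RNA polymerase II promoters centred on 0.46 (median log2 ratio, authors' scale). In 4 of them, U3, U8, U1 and U5, the ratio was above the miRNA median of 0.38, and U13 was the exception at -0.04. Of all 21 small RNAs, 8 were above that median, as were, by its definition, 84 of the 168 detected miRNAs. The gene of U8 lies within TMEM107 in RefSeq. The 4 probes for products of RNA polymerase III had a median of 0.22 and a range of -0.21 to 0.38. The 12 snoRNAs inside host genes had a median of 0.17 and a range of -0.19 to 0.59.

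Host genes of one kind held snoRNAs at both ends of the order. Among snoRNAs in ribosomal protein genes, SNORD14B in RPS13 had a ratio of -0.19, SNORD68 in RPL13 -0.04 and SNORD4A in RPL23A 0.58. The 4 in lncRNA genes ran from 0.06 to 0.59, the ends being SNORD49A and SNORD65, which share SNHG29. No test can be made of these differences.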
